A study of Mus musculus with 6 samples.

Results

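The proteasome genes of wild-type mouse regulatory T cells (Treg) were followed across 3 culture states. Genes were taken by symbol, as those named Psma to Psmg followed by a number, with pseudogenes left out. The rule found 50 of 24421 genes in the table. They comprised 7 genes of the alpha ring and 7 of the constitutive beta ring of the 20S core, 3 immunoproteasome beta subunits and 2 tissue-restricted core subunits. The 19S regulatory particle gave 6 ATPases, 3 other base subunits, 8 lid subunits and 3 assembly chaperones. A further 5 encoded activators, 1 the regulator PI31, and 4 assembly chaperones of the 20S core. The last, Psmc3ip, matched by its symbol only: its product acts in meiotic recombination and is not a proteasome subunit.

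The proteasome degrades proteins tagged with ubiquitin. Its 20S core is a barrel of alpha and beta rings with the proteolytic sites on the inner faces of the beta subunits encoded by Psmb5, Psmb6 and Psmb7. The 19S particle binds ubiquitin chains, removes them and unfolds the substrate with a ring of ATPases. In lymphocytes, and in other cells exposed to interferon gamma, the subunits encoded by Psmb8, Psmb9 and Psmb10 can replace the constitutive catalytic subunits. The resulting immunoproteasome is known for making peptides for MHC class I.

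Cells labelled Treg came from spleen and lymph nodes of mice with the WT genotype, and poly(A) RNA was amplified by SMART-seq, a method for full-length transcripts, from 40 ng of RNA of 100000 cells per sample. The 3 groups were untreated (unstimulated), stimulated, and stimulated with iBP, with 2 libraries each. The series describes iBP as an inhibitor of H2AK119ub1, the histone mark deposited by Polycomb repressive complex 1. No group was given iBP without stimulation, and Treg of Kdm2b conditional knockout mice, which the series also names, were not analysed here. The stimulus, its duration, the dose of iBP, the age of the mice and the purity of the cells are not given in the labels. Values were FPKM, fragments scaled to transcript length and library total, so levels of different genes can be set side by side. Summed FPKM was lowest in the libraries with iBP, at 366044 and 366722, against 374088 to 381302 in the others. In the main analysis FPKM values were not rescaled for this. The depth in reads is unknown, and single values therefore carry no counting error.

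Lineage markers were checked first. Cd3e, a T-cell receptor component, read 57.6 to 83.3 FPKM over the 6 libraries. Foxp3, which defines Treg, read 35.5 and 47.1 FPKM unstimulated, 121 and 101 stimulated and 122 and 124 with iBP. The T-cell markers found, 4 genes with Cd3e among them, took 0.0994% to 0.112% of summed FPKM. Of 8 B-cell markers, 8 reached 1 FPKM in at least 1 library. Together they took 0.219% and 0.231%, 0.241% and 0.223%, and 0.206% and 0.217% of summed FPKM in the 3 groups in that order. This was above the share of the T-cell markers in every library. The 5 Treg markers, Foxp3 among them, took 0.257% to 0.413%, above the B-cell markers in every library. These lists differ in length and in genes, so their shares do not rank the cell types. Cd79b, a B-cell receptor component, read 329 and 314 FPKM unstimulated, 336 and 340 stimulated and 222 and 244 with iBP, the lowest pair. Dendritic-cell markers took 0.00132% to 0.00249% and myeloid markers 0.0175% to 0.0273%. Of the 8 myeloid markers only 1 reached 1 FPKM in any library: Lyz2, at 65.5 to 99.5 FPKM. It made up nearly all of the myeloid sum of 66.8 to 100 FPKM, and Fcgr1 was listed at 0 in every library. Erythroid and platelet markers took 0.0589% in unstimulated replicate 1 and 0.0444% in iBP replicate 2, against 0.0128% to 0.0165% in the other libraries. Hba-a1 read 179 and 123 FPKM in those libraries, in that order, and 0 to 9.29 FPKM in the others. Hbb-bs, of the same list, read 28.1 and 24 FPKM there and 28.5 to 40.2 FPKM in the others. CD8 T-cell markers took at most 0.00383%, NK-cell markers at most 0.000603% and stromal markers at most 0.00704%. B cells also carry proteasomes, and their part in the values below was not tested. In bulk RNA, fewer cells of a type and less RNA per cell cannot be told apart.

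Proteasome transcripts were abundant. The 50 genes together took 1.05% and 0.978% of summed FPKM before stimulation, 0.980% and 0.971% after it, and 0.946% and 0.935% under iBP. Both iBP libraries lay below the other 4, and unstimulated replicate 1 lay above all others. Of the 50 genes, 48 reached 1 FPKM in 2 or more libraries and were tested, among 10436 genes tested in all. The 47 of these that encode proteasome proteins had a median level of 57.5 FPKM, against 8.42 for all tested genes. Psma8, a core subunit of the testis, was listed at 0 in 5 libraries and read 0.80 FPKM in unstimulated replicate 2. Psmb11, the core subunit of thymic cortical epithelium, was listed at 0 in every library.

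Transcript levels differed widely between the members, and their order was much the same in every library. The highest was Psmd4, which encodes a ubiquitin receptor of the 19S base, at a mean of 306 FPKM over the 6 libraries. Among the 47 tested genes of proteasome proteins the lowest was Psmg2, a chaperone of core assembly, at 4.73 FPKM, which makes a span of 64.8-fold. Within the constitutive 20S core, Psmb5 at 30.9 and Psmb2 at 226 FPKM marked the ends, 7.32-fold apart. The alpha ring ran from Psma3 at 45.0 to Psma7 at 146 FPKM, the ATPase ring from Psmc2 at 45.9 to Psmc1 at 124, and the lid from Psmd6 at 29.1 to Psmd8 at 215. Between libraries, the rank correlation of the 47 levels was 0.971 to 0.990, and 0.947 to 0.969 over all tested genes. These are correlations across genes, which are not independent replicates.

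**Figure D1:**
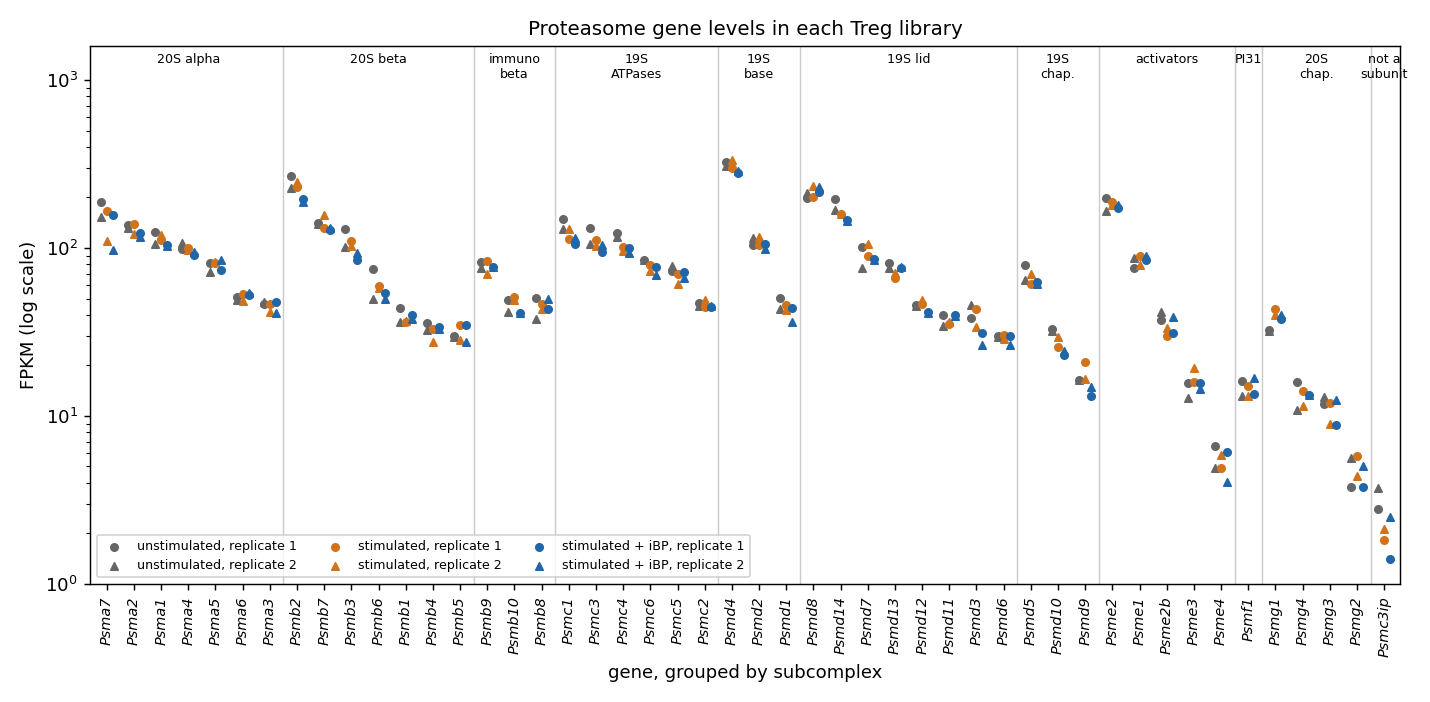
FPKM of each member above 0 in all 6 libraries (log axis), grouped by subcomplex and sorted by mean level within it; colours mark the group, circles replicate 1 and triangles replicate 2. Levels run from Psmc3ip at 2.39 to Psmd4 at 306 FPKM (means of 6 libraries). The ratio of the highest to the lowest library of a gene had a median of 1.28 over the 47 genes of proteasome proteins.

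A single gene varied little from library to library. The ratio of its highest to its lowest library had a median of 1.28 over the 47 genes and reached at most 1.93, in Psma7. It stayed under 1.5 for 39 of 47 genes (83.0%), and for 32.5% of the 10161 tested genes above 0 in every library, whose median was 1.73. The range was narrowest in Psmc2, an ATPase gene, which read 47.1 and 45.4 FPKM unstimulated, 44.3 and 48.9 stimulated and 44.4 and 45.3 with iBP. The members lie well above the median level of all genes, so these spans were not compared at equal level. In Psma7, an alpha ring gene, the spread followed the replicate number: replicate 1 read 188, 166 and 158 FPKM in the unstimulated, stimulated and iBP groups, and replicate 2 read 153, 110 and 97.8. In each group the first library was the higher, and the spread between replicates was as large as that between groups.

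The catalytic subunits come in pairs, in which an immunoproteasome subunit takes the place of a constitutive one. Their genes, with coordinates from GENCODE M21 for GRCm38, are Psmb5 (chr14:54614119-54618022, minus strand), Psmb6 (chr11:70525367-70527858, plus strand) and Psmb7 (chr2:38588036-38644087, minus strand) on the constitutive side. On the other side are Psmb8 (chr17:34197721-34201454, plus strand), Psmb9 (chr17:34181987-34187764, minus strand) and Psmb10 (chr8:105935735-105938444, minus strand). Psmb8 and Psmb9 lie in the MHC region, and the annotated start of Psmb9 lies 211 bases from that of Tap1, the peptide transporter gene, on the other strand. Some exons of Psmb9 and Tap1 share bases, and the strand setting of the counting is not given in the sources used here.

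Stretches of promoters are shown to give the letters behind these genes, from RefSeq windows of GRCm38.p6. Capitals mark letters that match a motif: the core of the antioxidant response element (TGACNNNGC), bound by the factors Nrf1 and Nrf2, in Psmb5 and Psmb6, and the interferon-stimulated response element (GAAA, any 2 bases and GAAA, here on the other strand) in Psmd4. The stretches are chr14:54618023-54618115 on the minus strand for Psmb5, chr11:70525237-70525356 on the plus strand for Psmb6 and chr3:95042615-95042734 on the minus strand for Psmd4.
Psmb5: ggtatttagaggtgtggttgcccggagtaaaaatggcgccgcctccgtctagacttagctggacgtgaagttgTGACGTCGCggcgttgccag
Psmb6: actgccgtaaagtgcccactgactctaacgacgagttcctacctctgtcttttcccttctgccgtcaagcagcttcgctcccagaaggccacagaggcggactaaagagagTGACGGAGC
Psmd4: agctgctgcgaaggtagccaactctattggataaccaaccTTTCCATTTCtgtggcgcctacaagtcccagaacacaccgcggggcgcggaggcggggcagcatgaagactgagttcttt

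Windows from 250 bases before to 50 bases after the start were found for 42 of the 50 genes and were searched on both strands. The antioxidant core was present in 6 of 42 genes (14.3%, in Psmb5, Psmb6, Psmc6, Psmd12, Psmd9 and Psme4), and in 12.4% of all 32851 windows of the table. The interferon-stimulated element was present in 5 genes (11.9%, in Psmb3, Psmd4, Psmd9, Psme1 and Psmg4), and in 3.44% of all windows. Counted by windows, of which some genes have more than 1, the shares for the proteasome genes were 13.3% and 11.1%. Matching letters do not show that a factor binds there.

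Both kinds of catalytic subunit were expressed in all 3 states, and 0 of the 6 genes passed the test in any comparison. Psmb8, which encodes the immunoproteasome subunit that replaces that of Psmb5, read 50.7 and 37.8 FPKM unstimulated, 46.2 and 43.3 stimulated, and 43.6 and 49.7 with iBP. Its counterpart Psmb5 read 30.1 and 29.6, then 35.0 and 28.4, then 34.8 and 27.4 FPKM. The groups overlapped for both genes. The ratio of Psmb8 to Psmb5 was 1.48 ± 0.289 (SD, n = 2 libraries) unstimulated, 1.42 ± 0.145 stimulated and 1.53 ± 0.394 with iBP; the means lay closer together than the replicates within each group. More than 50% of the 50-base words of the Psmb5 transcript (57.1%) recur in other annotated genes, with 49.4% of all its words found in Gm3375, and how such reads were assigned is not known here.

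Psmb9, the counterpart of Psmb6, read 82.1 and 75.5 FPKM unstimulated, 83.9 and 70.1 stimulated and 77.0 and 76.6 with iBP. Psmb6 read 74.6 and 49.7, then 59.1 and 57.4, then 54.3 and 49.8 FPKM. The high value of Psmb6 in unstimulated replicate 1 set the lowest ratio of Psmb9 to Psmb6, 1.10, and the other 5 libraries gave 1.22 to 1.54. Group means of that ratio were 1.31 ± 0.297, 1.32 ± 0.138 and 1.48 ± 0.0840 (SD, n = 2).

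Psmb10, the counterpart of Psmb7, stood well below it. It read 48.8 and 41.4 FPKM unstimulated, 50.9 and 49.1 stimulated, and 41.1 and 41.2 with iBP, and Psmb7 read 141 and 139, 132 and 157, and 128 and 132. The ratio was 0.321 ± 0.0338, 0.348 ± 0.0514 and 0.316 ± 0.00689 (SD, n = 2). Both iBP libraries of Psmb10 lay below both stimulated ones, by a fitted log2 difference of −0.27 ± 0.15 (SE, 95% interval −0.59 to 0.04), which did not pass (limma, adjusted p = 0.998). Against unstimulated libraries the stimulated ones were higher by 0.15 ± 0.15 (adjusted p = 0.801).

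**Figure D2:**
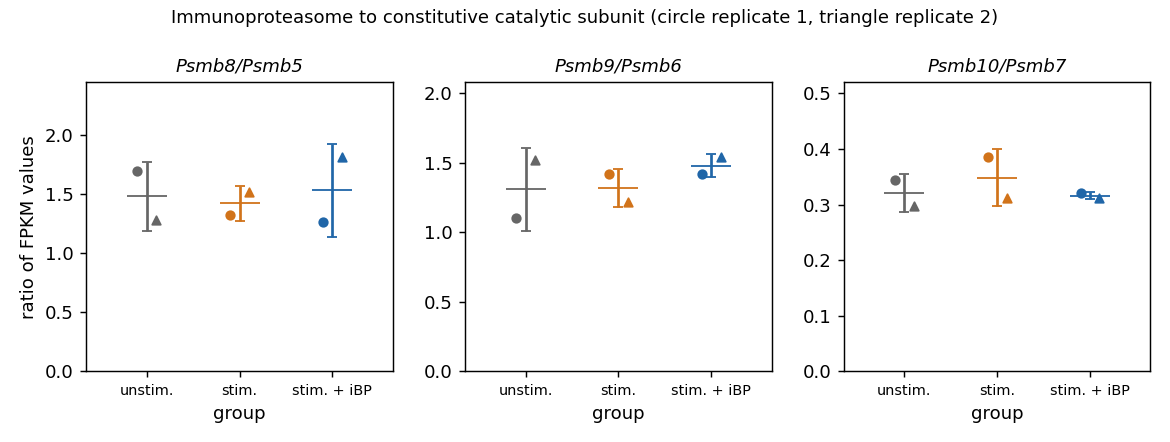
Ratio of FPKM of each immunoproteasome catalytic gene to its constitutive counterpart, by group, on axes that start at 0; points are single libraries, bars the mean and SD of 2 libraries. Psmb8 and Psmb9 exceeded their counterparts in every library (lowest ratios 1.26 and 1.10) and Psmb10 did not in any (highest 0.385). All groups overlap in the first and the last panel. In the middle panel the unstimulated pair (1.10 and 1.52) overlaps both other groups. The stimulated and iBP pairs there meet at 1.42.

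Stimulated against unstimulated cells were compared to ask whether the set differed with stimulation. No member passed the test: 0 of 48 had an adjusted p under 0.05 with limma, where 1.29% of all tested genes did, and 2 of 48 had an unadjusted p under 0.05, where 10.8% of all did. The median log2 difference (of FPKM + 1) was −0.05, with −0.51 and 0.37 as the extremes. The 95% interval excluded a 2-fold difference in either direction for 47 of 48 members, and did so for 68.6% of all tested genes, whose levels were mostly lower. The exception was Psmc3ip, which is no subunit. Each of the 47 genes of proteasome proteins had its interval inside 2-fold in the main analysis.

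The 3 genes with the highest fitted difference were Psmg1, Psme3 and Psmd9. Psmg1, which encodes the core assembly chaperone PAC1, read 32.3 and 31.9 FPKM unstimulated, 43.6 and 40.0 stimulated and 37.9 and 40.1 with iBP. Both stimulated libraries and both iBP libraries exceeded the unstimulated pair. The difference was 0.37 ± 0.15 (SE, 95% interval 0.05 to 0.69) with stimulation, and 0.27 ± 0.15 for iBP against unstimulated, with adjusted p of 0.366 and 0.501 (limma). Psme3, which encodes the nuclear activator PA28 gamma, read 15.6 and 12.7, then 15.9 and 19.4, then 15.7 and 14.4 FPKM. It differed by 0.30 ± 0.20 with stimulation (adjusted p = 0.67). Psmd9, a chaperone of 19S base assembly, read 16.3 in both unstimulated libraries, 21.0 and 16.5 in stimulated and 13.1 and 14.8 in iBP libraries. It was higher by 0.18 ± 0.20 with stimulation, and its iBP libraries were the lowest.

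The 3 with the lowest fitted difference were Psmc3ip, Psma7 and Psme2b. Psmc3ip read 2.80 and 3.70 FPKM unstimulated, 1.83 and 2.12 stimulated and 1.40 and 2.48 with iBP, a difference of −0.51 ± 0.33 with stimulation (95% interval −1.24 to 0.22, adjusted p = 0.658). Psma7, given above, differed by −0.32 ± 0.23 (adjusted p = 0.685). Psme2b, a close copy of Psme2, read 37.2 and 41.7, then 29.7 and 33.5, then 31.0 and 38.7 FPKM, a difference of −0.31 ± 0.17 (adjusted p = 0.54). Of the 50-base words of its transcript 68.7% recur in Psme2, and of those of Psme2 59.3% recur in Psme2b, so the values of both genes are uncertain.

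By subcomplex, the medians lay between −0.18 and 0.03, and their order changed with single libraries. The lowest was that of the ATPase ring, where 5 of 6 genes had a fitted difference below 0. Psmc4 had the smallest unadjusted p of the ring and read 123 and 117 FPKM unstimulated, 101 and 96.2 stimulated and 100 and 93.5 with iBP. All 4 stimulated and iBP libraries lay below both unstimulated ones, and the difference with stimulation was −0.28 ± 0.12 (adjusted p = 0.431). Psmc1, Psmc5 and Psmc6 were also lower in the stimulated group without overlap, as were 19.1% of all tested genes. For Psmc1 the gap was small: unstimulated replicate 2 and stimulated replicate 2 both round to 130 FPKM. Without stimulated replicate 2 the ATPase median was −0.11, and that of the 19S chaperones, −0.24, was lower; without unstimulated replicate 2 these were −0.23 and −0.26. The immunoproteasome and activator medians were 0.03 and 0.02, but 0.24 and 0.10 without unstimulated replicate 1 and both −0.10 without unstimulated replicate 2. The median of the 20S chaperones was 0.03, but −0.12 and 0.18 without stimulated replicates 1 and 2. That of the constitutive beta ring was −0.06, but 0.06 and −0.23 without unstimulated replicates 1 and 2.

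Without overlap between groups, 10 of 48 members were lower and 6 higher in stimulated libraries, where 19.1% and 18.7% of all tested genes were. A fitted difference below 0 was found in 30 of 48 (62.5%), against 50.3% of all tested genes. The excess below 0 depended on 1 library, unstimulated replicate 1. That library had 12596 genes above 0 FPKM, against 13293 to 13592 in the others, and the bearing of this was not tested. Without unstimulated replicate 1, 19 of 48 (39.6%) were below 0, where 52.9% of all tested genes were, and the median was 0.02. Without unstimulated replicate 2, 35 (72.9%) were, where 49.3% of all tested genes were, and the median was −0.13.

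**Figure D3:**
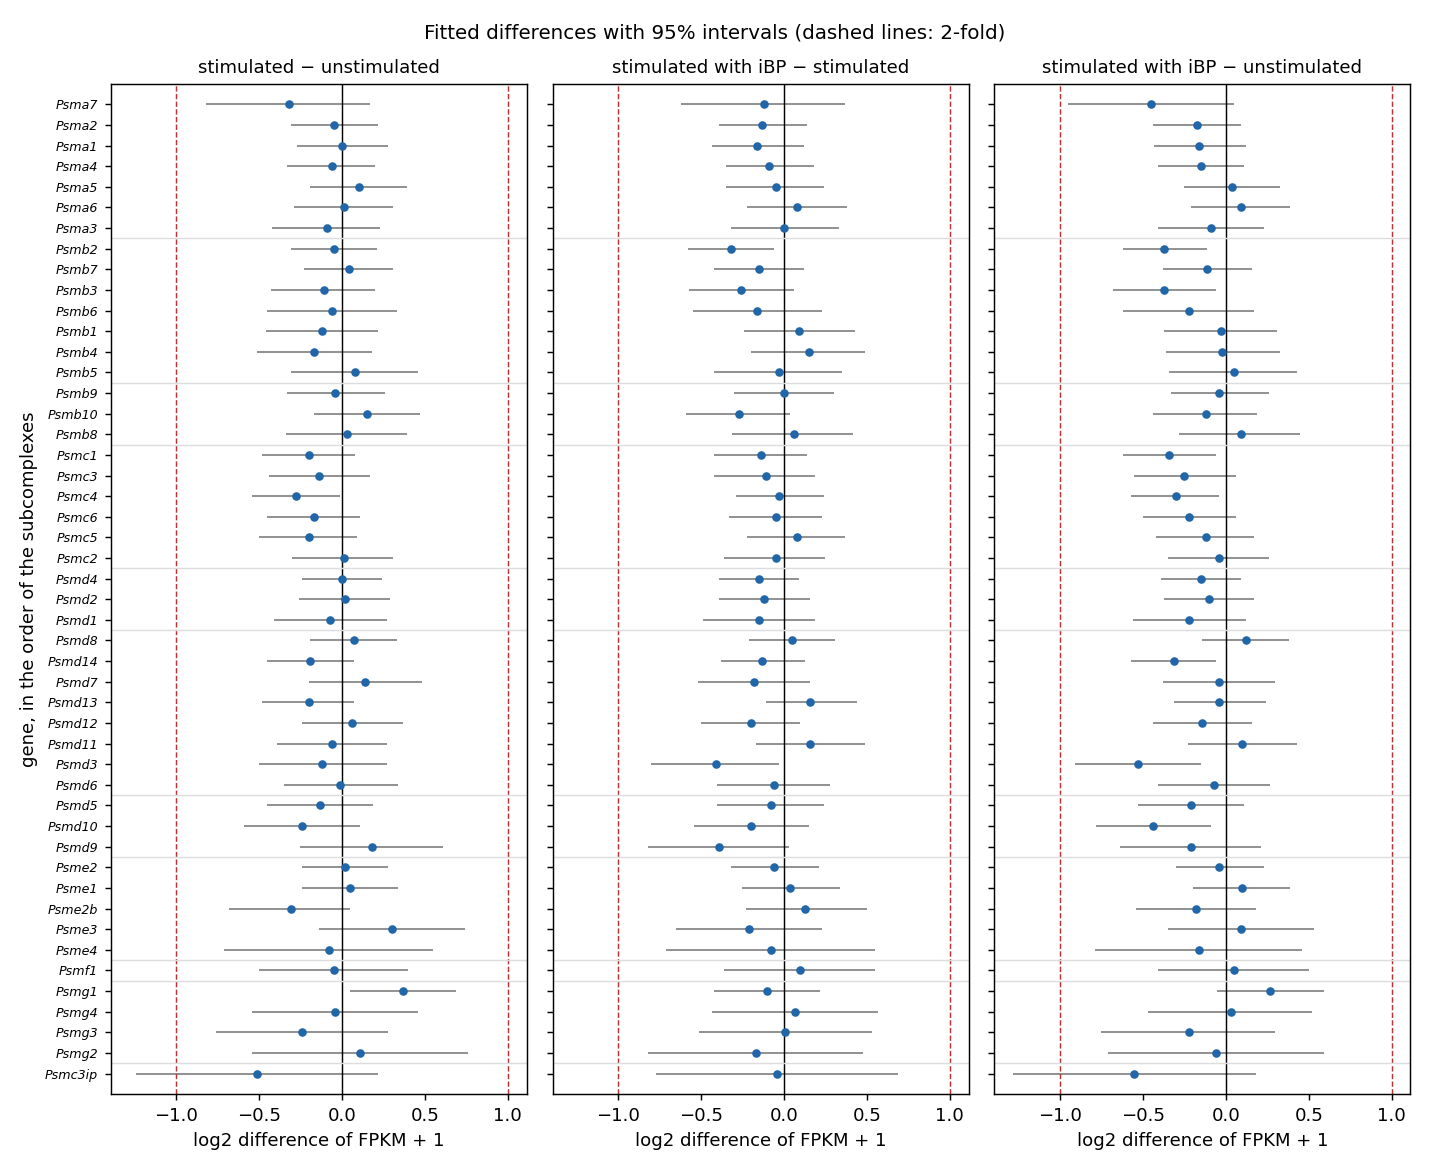
Fitted log2 difference of FPKM + 1 (points) with its 95% interval (lines) for each of 48 tested members in 3 comparisons; dashed lines mark 2-fold. Intervals of 47, 48 and 47 members stay within the dashed lines from left to right, with Psmc3ip as the exception in the first and last panels.

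Stimulated cells with iBP were compared with stimulated cells to ask how the set differed in the presence of iBP. Again 0 of 48 members passed (limma, adjusted p of at least 0.998 for every member), where 0.00958% of all tested genes did, which is 1 gene. An unadjusted p under 0.05 was found for 2 members, both lower with iBP, and for 4.77% of all tested genes. The median log2 difference was −0.08, against −0.03 for all tested genes, and the extremes were −0.41 and 0.16. For 48 of 48 members the 95% interval lay within 2-fold, as it did for 73.9% of all tested genes. Half-widths of these intervals had a median of 0.32 (log2) with no adjustment over genes, so differences of that size or larger can miss the adjusted threshold with 2 libraries a group.

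The lowest fitted differences were those of Psmd3, Psmd9 and Psmb2. Psmd3, a scaffold subunit of the 19S lid, read 38.1 and 45.5 FPKM unstimulated, 43.4 and 34.0 stimulated and 31.0 and 26.3 with iBP. Both iBP libraries were the lowest of the 6. The share of all tested genes with that order is not given here, for Psmd3 or for other genes described so. Psmd3 differed by −0.41 ± 0.18 from stimulated (SE, 95% interval −0.80 to −0.03) and by −0.53 ± 0.18 from unstimulated libraries (−0.91 to −0.15), with adjusted p of 0.998 and 0.209. Psmd9 differed by −0.39 ± 0.20 from stimulated libraries (−0.82 to 0.03).

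Psmb2, a non-catalytic beta ring gene and the most abundant of that ring, read 267 and 229 FPKM unstimulated, 230 and 248 stimulated and 196 and 187 with iBP. Both iBP libraries of Psmb2 were the lowest. Psmb2 differed by −0.32 ± 0.12 from stimulated (95% interval −0.58 to −0.06) and by −0.37 ± 0.12 from unstimulated libraries (−0.62 to −0.11, adjusted p = 0.189). Psmb3, of the same ring, read 130 and 102, then 110 and 103, then 84.3 and 93.8 FPKM, and differed by −0.26 ± 0.14 from stimulated libraries.

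The highest fitted differences with iBP were smaller. Psmd13, a lid gene, read 81.3 and 76.4 FPKM unstimulated, 66.4 and 70.5 stimulated and 76.3 and 77.2 with iBP, a difference of 0.16 ± 0.13 from stimulated libraries. Psmd11, another lid gene, read 40.1 and 34.2, then 35.1 and 36.1, then 40.1 and 39.5, also a difference of 0.16. Psmb4, of the constitutive beta ring, read 35.5 and 32.5, then 32.8 and 27.7, then 33.9 and 33.1, a difference of 0.15. In all 3 the iBP libraries exceeded the stimulated ones without overlap, and the iBP and unstimulated libraries overlapped.

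Without overlap between groups, 14 of 48 members were lower and 4 higher with iBP, where 21.0% and 13.6% of all tested genes were. The 14 included the beta ring genes Psmb2, Psmb3 and Psmb6, the immunoproteasome gene Psmb10 and the lid genes Psmd3, Psmd7, Psmd12 and Psmd14. A fitted difference below 0 was found in 33 of 48 (68.8%), and in 55.8% of all tested genes. Without stimulated replicate 1 it was found in 30 of 48 (62.5%), where 58.9% of all tested genes were below 0, and the medians were −0.05 and −0.06. Rescaled to TPM, 31 of 48 (64.6%) were below 0, where 49.7% of all tested genes were, and the median of the members was −0.04. By subcomplex, the medians were −0.20 for the 19S chaperones, −0.15 for the constitutive beta ring and the non-ATPase base, −0.09 for the alpha ring and the lid, −0.05 for the ATPases and 0.00 for the immunoproteasome subunits. No median of a subcomplex was tested.

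Psmd14, which encodes the deubiquitinase of the lid, had iBP libraries below both other groups. It read 195 and 169 FPKM unstimulated, 159 in both stimulated libraries, and 147 and 145 with iBP. It differed by −0.13 ± 0.12 from stimulated and by −0.31 ± 0.12 from unstimulated libraries (adjusted p = 0.28). In Psmd4 the iBP libraries were the lowest: 327 and 307, then 300 and 335, then 280 and 289 FPKM, a difference of −0.15 ± 0.11 from stimulated libraries (95% interval −0.39 to 0.09). Psmd8, the most abundant lid gene, read 198 and 214, then 200 and 233, then 216 and 232, a difference of 0.05 ± 0.12 with overlap.

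Among the activators of the core, the iBP and stimulated libraries overlapped for Psme1, Psme2, Psme2b and Psme4, and those of Psme3 lay lower with iBP without overlap (−0.21 ± 0.20). Psme1 and Psme2, which encode the PA28 subunits that interferon gamma is known to induce, read 76.1 and 87.1 and 198 and 167 FPKM unstimulated. Psme1 read 90.2 and 78.9 stimulated and 85.0 and 89.1 with iBP, and Psme2 read 187 and 181 and then 173 and 181. Differences with iBP were 0.04 ± 0.13 for Psme1 and −0.06 ± 0.12 for Psme2, with overlap in both. Psme4, which encodes the activator PA200, was low, at 6.62 and 4.92, then 4.88 and 5.85, then 6.12 and 4.04 FPKM, and its replicates lay further apart than its groups.

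Stimulated cells with iBP were also compared with unstimulated cells. The comparison shares its libraries with both others, so its values are not separate support for them. Of 48 members 0 passed, where 1.75% of all tested genes did, and 7 had an unadjusted p under 0.05, where 12.2% of all did. All 7 were lower with iBP: Psmb2, Psmb3, Psmd3, Psmd14, Psmd10, Psmc1 and Psmc4. Psmd10, which encodes the 19S chaperone gankyrin, read 32.9 and 32.2 FPKM unstimulated, 25.7 and 29.3 stimulated and 23.2 and 24.4 with iBP. Both iBP libraries were the lowest, and the difference from unstimulated was −0.44 ± 0.16 (95% interval −0.78 to −0.09, adjusted p = 0.268). Psmc1, an ATPase gene, read 149 and 130, then 113 and 130, then 106 and 114 FPKM, a difference of −0.34 ± 0.13 (adjusted p = 0.296). The lowest fitted differences were those of Psmc3ip at −0.55 ± 0.33, Psmd3 at −0.53 ± 0.18 and Psma7 at −0.45 ± 0.23, the last with overlap between groups. The highest were those of Psmg1 at 0.27, Psmd8 at 0.12 and Psmd11 at 0.10.

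The median log2 difference was −0.12, against −0.03 for all tested genes. A fitted difference below 0 was found in 37 of 48 members (77.1%) and in 54.4% of all tested genes, and 6 of 6 ATPase genes were below 0. Without overlap, 21 of 48 members (43.8%) were lower and 3 higher, where 23.9% and 18.1% of all tested genes were. Intervals within 2-fold were found for 47 of 48 members and 67.3% of all tested genes. Without unstimulated replicate 1, 30 of 48 (62.5%) were below 0, where 57.4% of all tested genes were, and the medians were −0.07 and −0.06. Rescaled to a common total as TPM, 31 of 48 (64.6%) were below 0, where 48.9% of all tested genes were. Without unstimulated replicate 2, 42 of 48 (87.5%) were below 0, where 52.2% of all tested genes were, and the medians were −0.16 and −0.02.

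**Figure D4:**
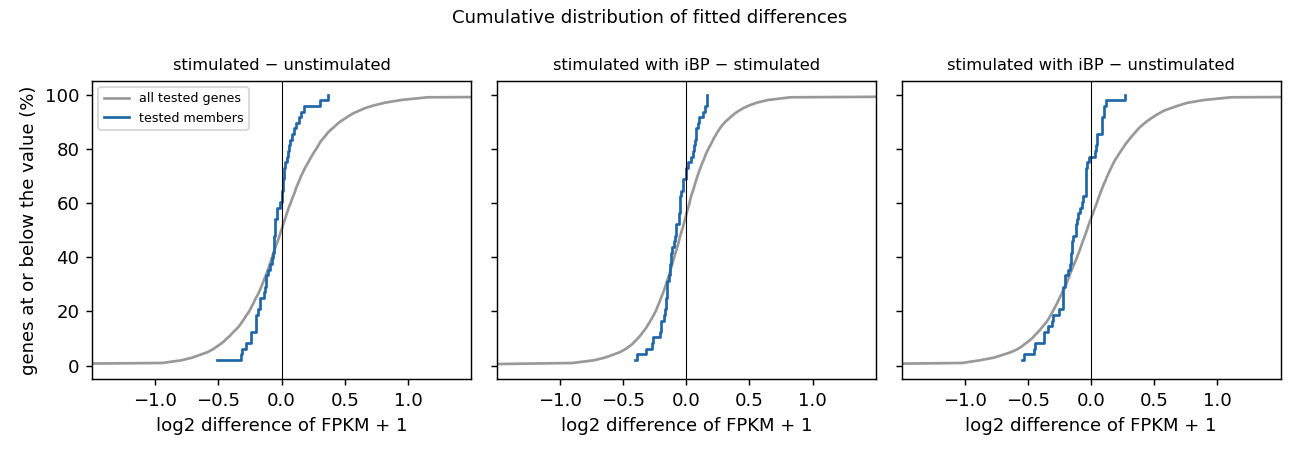
Cumulative share of genes by fitted log2 difference in 3 comparisons, for the 48 tested members (blue steps) and all 10436 tested genes (grey line, by percentiles). The members rise more steeply than all genes, and their medians are −0.05, −0.08 and −0.12 from left to right.

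Other genes of the pathway, from a list of cofactors, ubiquitin genes and MHC class I peptide loading, were tested in the same fit. Of 40 listed symbols in the table, 39 were tested and 0 rose and 0 fell in each of the 3 comparisons (limma). An unadjusted p under 0.05 was found for 2 of them with stimulation, 0 for iBP against stimulated and 4 for iBP against unstimulated, where 10.8%, 4.77% and 12.2% of all tested genes had one. Their median log2 differences were −0.00, −0.00 and −0.01. Pomp, which encodes the chaperone that matures the core, read 134 and 114 FPKM unstimulated, 119 and 117 stimulated and 107 and 111 with iBP. Nfe2l1, which encodes Nrf1, the factor that induces subunit genes when proteasome activity is short, read 18.6 and 18.1, then 23.4 and 19.4, then 20.7 and 22.9 FPKM. Its difference with stimulation was 0.21 ± 0.18 (limma, adjusted p = 0.764). Tap1 read 54.4 and 61.6, then 58.2 and 52.6, then 54.2 and 63.8, with overlap between all groups.

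The highest differences of these genes with stimulation were those of Nlrc5 and Nfe2l2, and the lowest those of Ddi2 and Zfand5. Nlrc5, which encodes a transactivator of MHC class I genes, read 13.4 and 14.3 FPKM unstimulated, 18.4 and 19.2 stimulated and 20.9 and 19.8 with iBP, a difference of 0.42 ± 0.18 (adjusted p = 0.424). Nfe2l2, which encodes Nrf2, read 32.7 and 46.0, then 51.0 and 52.3, then 51.3 and 52.6 FPKM, a difference of 0.40 ± 0.17 (adjusted p = 0.405). In both genes the unstimulated pair lay below the other 4 libraries. Ddi2, which encodes the protease that activates Nrf1, read 21.1 and 32.7 FPKM unstimulated, 15.1 and 22.9 stimulated and 13.3 and 12.4 with iBP, a difference of −0.48 ± 0.25 with stimulation (adjusted p = 0.525). Both iBP libraries of Ddi2 were the lowest, and iBP against unstimulated gave −0.98 ± 0.25 (95% interval −1.52 to −0.44, adjusted p = 0.0786). Zfand5, a proteasome-binding factor gene, differed by −0.31 ± 0.28 (adjusted p = 0.788). Of these 4 genes 0 passed.

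The 50 genes lie on 16 chromosomes, and their transcripts differ in how far they can be told from copies. Of 50 transcripts, 28 held no 50-base word found in another annotated gene, and 12 shared more than 10% of their words. Psma5, Psmb3, Psmb5, Psme2 and Psme2b shared more than 50%: Psma5 most with Gm8394, Psmb3 with AC114990.1, and the others as given above. Exons of 15 members share bases with another annotated gene. How the authors treated reads with several matches is not given in the sources used here.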

How the data were processed

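The authors deposited 1 table of FPKM values for 6 Treg libraries in 3 groups of 2. Alignment with HISAT2 2.2.1, StringTie 2.1.1 and the build mm10 are named in the submitters' processing notes; annotation, filters, strand setting: not given in the sources used here. Groups and replicates follow the titles. The labels do not say that replicates are separate animals, and a p-value here reflects the spread of these samples alone, possibly technical.

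Genes reaching 1 FPKM in 2 or more libraries were fitted as log2(FPKM + 1), a scale that understates changes of low genes. One limma 3.58.1 model (R 4.3.3) covered all such genes and the 3 groups, with 3 residual and 8.52 prior degrees of freedom. P-values are two-sided, adjusted by the Benjamini-Hochberg method, with a threshold of 0.05. The fit was tested on simulated data.

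The members and lists were chosen with earlier results of these data known. Named members are the catalytic subunits, activators, Psmd4, Psmd14, untested members and the 3 largest differences each way per comparison. Other pathway genes named are the 2 largest each way with stimulation, Pomp, Nfe2l1 and Tap1. Psmb3, Psmc1, Psmc2, Psmc4 and Psmd10 were added after their values were seen. Shared words of 50 bases were counted in the longest coding transcript of each member (GENCODE M21). Alternatives were another pseudocount, other filters and scalings, no variance trend, a replicate block, 2 groups only, and each library left out. Another motif that was searched is not reported here.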

Additional observations from a re-analysis of the deposited data

How the results depend on the processing

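No tested member passed under any alternative run with limma, in any of the 3 comparisons; the lowest adjusted p was 0.0933, for Psmb3 in iBP against unstimulated without unstimulated replicate 2. Counts of members below 0 and of intervals within 2-fold under alternatives were added after the values were seen. Without a variance trend, intervals lay within 2-fold for 46 of 48 members in stimulated against unstimulated. For iBP against stimulated they did for 48, and for iBP against unstimulated for 45. With some single libraries left out, fewer did than in the main analysis. The labels do not say whether same-numbered libraries share an animal or day. The difference of replicate 1 from replicate 2 was correlated between groups across 10436 genes. The correlation was −0.0462 for unstimulated and stimulated, −0.0185 for unstimulated and iBP, and −0.0118 for stimulated and iBP. Such values over all genes cannot decide whether the samples were paired, and in Psma7 the spread followed the replicate number. With the number as a replicate block, 0 of 48 members passed. Psma7 then had the smallest p of the members in iBP against unstimulated (limma, adjusted p = 0.218, against 0.465 in the main analysis). Each group holds both replicate numbers, so the block cannot change a fitted difference. The medians of −0.05, −0.08 and −0.12 therefore had to stay the same. The median of the members for stimulated against unstimulated was 0.02 without unstimulated replicate 1 and −0.13 without unstimulated replicate 2, with −0.13 to 0.02 as the range over libraries left out. For iBP against unstimulated it was −0.07 without unstimulated replicate 1, with −0.16 to −0.07 as the range. For iBP against stimulated it ranged from −0.09 to −0.05 over libraries left out, and was −0.04 under median-of-ratios scaling and rescaled to TPM. Single genes changed sign in 33 of 69 differences of named members, each of size 0.22 or less in the main analysis; the cause was not tested. For stimulated against unstimulated, the log2 differences that changed sign when 1 library was left out ranged as follows: Psmb5 −0.07 to 0.23, Psmb6 −0.35 to 0.23, Psmb7 −0.09 to 0.16, Psmb8 −0.18 to 0.24, Psmb9 −0.17 to 0.09, Psme1 −0.04 to 0.15, Psme2 −0.10 to 0.14, Psme4 −0.26 to 0.10, Psmd4 −0.08 to 0.08, Psmb2 −0.16 to 0.06, Psmd11 −0.17 to 0.05, Psmd3 −0.29 to 0.06 and Psmd8 −0.04 to 0.18. For iBP against stimulated, the log2 differences that changed sign when 1 library was left out ranged as follows: Psmb5 −0.20 to 0.14, Psmb8 −0.03 to 0.15, Psmb9 −0.13 to 0.13, Psme1 −0.05 to 0.14, Psme4 −0.33 to 0.17, Psma7 −0.47 to 0.22, Psmc3ip −0.31 to 0.23, Psmd8 −0.05 to 0.16 and Psme2b −0.02 to 0.29. For iBP against unstimulated, the log2 differences that changed sign when 1 library was left out ranged as follows: Psmb5 −0.12 to 0.21, Psmb6 −0.51 to 0.07, Psmb8 −0.12 to 0.29, Psmb9 −0.10 to 0.02, Psme1 −0.00 to 0.19, Psme2 −0.16 to 0.08, Psme3 −0.06 to 0.23, Psme4 −0.41 to 0.08, Psmb4 −0.08 to 0.04, Psmd11 −0.01 to 0.21 and Psmd13 −0.08 to 0.01. Rescaled to TPM, the difference was 0.00 for Psmd4 with stimulation, 0.01 for Psmb5 in iBP against stimulated, and 0.01 for Psmb9, Psme2 and Psmd13 and 0.02 for Psmb4 in iBP against unstimulated. Under median-of-ratios scaling it was 0.01 for Psmb5 in iBP against stimulated, and 0.00 for Psmb9 and 0.02 for Psmb4 in iBP against unstimulated. With 2 libraries a group and no read depth, small differences cannot be resolved.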
